A study of Mus musculus with 4 samples.

Results

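C2C12 myotubes were compared with untreated V6.5 embryonic stem (ES) cells over the 19 mouse autosomes, by chromatin immunoprecipitation and sequencing (ChIP-seq) with an antibody against total histone H3. This comparison used 2 of the 4 libraries of the series, chosen by their labels, with 1 library a side. C2C12 is an immortalised mouse myoblast line, and its myotubes had been formed over 48 h in medium with 2% horse serum, selenium, transferrin and insulin. The V6.5 ES cells, of C57BL/6-129 background, had been grown on irradiated mouse embryonic fibroblasts and then passaged 2 times without them on gelatin, with no treatment. The other libraries, from V6.5 ES cells after 24 h in 10 uM SB431542 (a blocker of activin and TGF-beta receptor signalling) and from the 38B9 pro-B line under normal culture, served to show how far a second ES library lay from the first and what level a region had in another cell type. The labels do not give the share of fused cells in the myotube culture, and H3 reads do not report the expression of muscle or pluripotency markers, so the cell types were not checked against markers.

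Histone H3 is a core protein of the nucleosome, the unit around which nuclear DNA is wrapped. An antibody against total H3 recovers nucleosomes whatever their modification, so its reads follow how much DNA of a region is present and how densely that DNA is packed in nucleosomes. Myotubes are long, postmitotic muscle cells that form when myoblasts leave the cell cycle and fuse, whereas ES cells are pluripotent and divide rapidly. C2C12 cells descend from C3H mice, so the lines compared differ in strain as well as in cell type. Since no input library was used, H3 per copy cannot be told apart here from DNA copy number or from strain differences to the reference genome.

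Per read position and strand, 1 read was kept. The autosomes then held 12432118 distinct reads in the myotube library and 13132855 in the untreated ES library, both from sequencing run 100623 per the file headers. The SB431542 library (run 100804) held 13469179 and the pro-B library 13015879. Counts were made in bins of 100 kb and 10 kb, as shares of each library's autosomal total. The log2 ratio of myotube to untreated ES was then reduced by the median log2 ratio of its own chromosome, which gives the corrected log2 ratio used below. These medians were -0.40 on chromosome 7 and 0.36 on chromosome 15, and between -0.15 (chromosome 8) and 0.06 (chromosome 1) on the other 17 autosomes. A bin was kept with a mean of at least 100 reads (100 kb) or 20 reads (10 kb) over the 2 libraries, which left 23351 of the 23881 100 kb bins with any read and 222698 of 236367 10 kb bins. No difference below has a replicate check, and 95% intervals are exact conditional binomial intervals that cover counting error only.

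Outside chromosome 8, the H3 distribution of myotubes stayed close to that of ES cells once the chromosome medians were removed. Of 22113 bins of 100 kb on the other 18 autosomes, 17904 had a corrected log2 ratio within 0.25 of 0, and 21930 (99.2%) lay within 0.5. By the rule of size, a corrected log2 ratio of at least 0.5 in either direction (1.41-fold), 230 of all 23351 autosomal bins were higher in myotubes (0.985%) and 243 were lower (1.04%). Chromosome 8 held 195 of the higher and 95 of the lower bins. Without it, 35 bins were higher (0.158%) and 148 lower (0.669%). With a running median over about 5 Mb in place of the chromosome median, 39 bins were higher and 97 lower over all autosomes. The SB431542-treated ES library, set against the same untreated ES library by the same rule, had 1 bin higher (0.00428%) and 2 lower (0.00855%) of 23389.

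The small differences were wider than counting gives. Over all autosomes the standard deviation (SD) of the corrected log2 ratio was 0.244 per 100 kb, and 0.196 without chromosomes 4 and 8. The median bin held 538 myotube and 574 ES reads, for which counting alone gives an SD of 0.087 by formula. The SB431542-treated and untreated ES libraries, which differ in treatment and in sequencing run, had an SD of 0.114. The share of called bins was highest on chromosomes 8 (23.4%), 4 (2.66%) and 17 (2.56%) and lowest on chromosomes 10 (0.158%), 9 (0.333%) and 15 (0.398%). Chromosomes 7 and 15, whose medians were shifted most, were thus not rich in called bins, with 7 of 1278 and 4 of 1004.

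**Figure D1:**
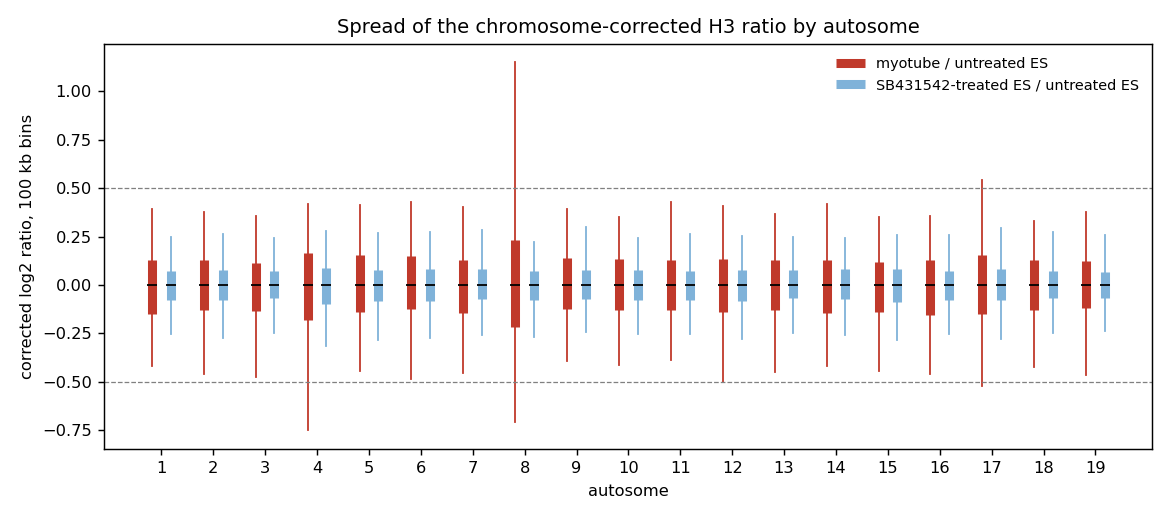
Corrected log2 ratio of 100 kb bins by autosome for myotubes (red) and SB431542-treated ES cells (blue), each against untreated ES cells. Thick bars span the middle 50% of bins, thin lines the 1st to 99th percentile, black ticks the median, and dashed lines the rule of size at 0.5; the middle 50% of myotube bins spans most on chromosome 8.

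Chromosome 8 had the highest share of called bins, and its differences came in long steps. Its SD, 0.442, was below that of chromosome 4 (0.492), where a few bins lay far lower, while its scaled median absolute deviation was the highest of the 19 autosomes at 0.332, against 0.257 on chromosome 4. Reads rose over a stretch of 20100 kb from 81500001 to 101600000, which held 212851 myotube reads against 135423 in untreated ES cells. The SB431542 library held 148361 there and the pro-B library 107014. Relative to the median 100 kb bin of chromosome 8 in the same library, the stretch stood at 1.93 in myotubes, 1.02 in both ES libraries and 1.15 in pro-B cells. The corrected ratio of myotube to ES was 1.84 (1.826 to 1.851) for the stretch. In 191 of its 201 bins of 100 kb the corrected log2 ratio reached the rule of size, and in the other 10 it lay between 0.33 and 0.50. The median was 0.89, against -0.03 for SB431542-treated ES cells in the same bins. From the second value the chromosome 8 median of treated to untreated ES, 0.118, had been removed. That median was the furthest from 0 of the 19 autosomes in the comparison of the ES libraries.

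The higher stretch, taken from its first to its last run of called bins, had narrow edges. At its start, the corrected log2 ratio went from -0.12 in the bin from 81300001 to 0.37 in the next and 0.78 in the bin from 81500001. At its end, it fell from 0.98 in the bin from 101500001 to -0.11 in the bin from 101600001. ES reads were 534 and 595 in those bins at the end, while myotube reads were 903 and 472. Runs of at least 3 neighbouring called bins, here named domains, divided the stretch into 5. The longest were 81500001 to 90600000 with a ratio of 1.91 (1.891 to 1.930), 94000001 to 98000000 with 1.84 (1.813 to 1.869) and 98100001 to 101600000 with 1.94 (1.906 to 1.971). With the chromosome mean in place of the chromosome median, these ratios were 1.74, 1.68 and 1.77.

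Distal to it, chromosome 8 was lower in myotubes over another 19800 kb, from 109300001 to 129100000. This stretch held 86306 myotube reads against 136278 ES reads, a corrected ratio of 0.741 (0.735 to 0.747), with SB431542-treated ES cells at 0.946 times untreated ES. The 77 bins between the stretches had a median corrected log2 ratio of -0.15. In the distal stretch the median was -0.46, just short of the rule, so that only 77 of its 198 bins were called and the calls broke up into 10 domains of 300 to 1100 kb. Their ratios ran from 0.622 to 0.694. The 3 longest were 128000001 to 129100000 at 0.641 (0.618 to 0.664), 125800001 to 126400000 at 0.655 (0.623 to 0.688) and 109300001 to 109900000 at 0.648 (0.617 to 0.680). Against SB431542-treated ES cells these 3 stood at 0.717, 0.716 and 0.714, and that library itself was at 0.902, 0.923 and 0.916 times untreated ES there. The proximal part of the chromosome, up to 81500000, had a median of 0.03, with 4 of 732 bins higher and 6 lower.

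**Figure D2:**
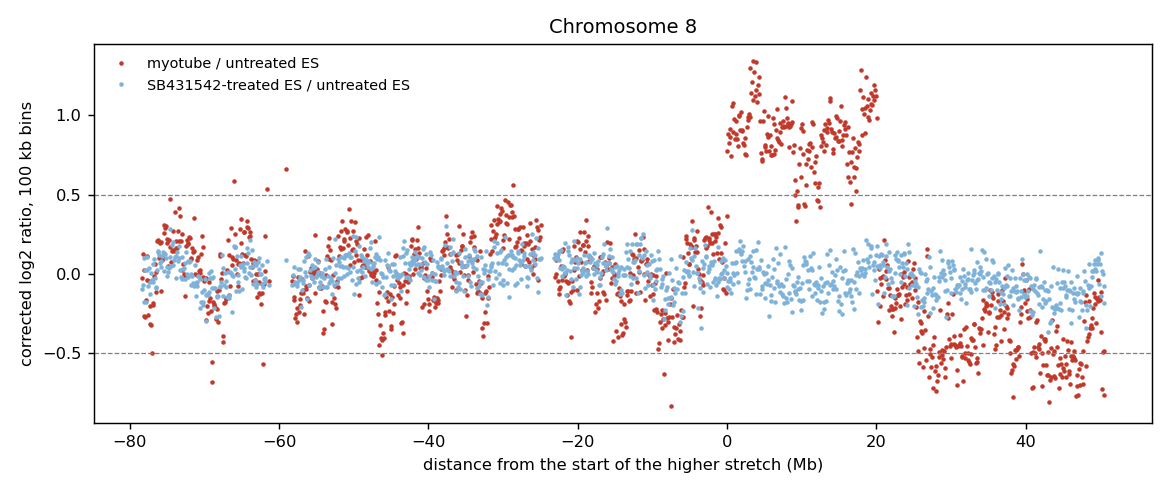
Corrected log2 ratio of each 100 kb bin of chromosome 8 by its distance from the start of the higher stretch, in Mb, for myotubes (red) and SB431542-treated ES cells (blue) against untreated ES cells. Myotube bins step up at 0 Mb to a median of 0.89 and back down 20.1 Mb later. They lie lower again towards the distal end. The ratio between the ES libraries stays near 0 along the chromosome, after its own chromosome median of 0.118 was removed.

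Both long stretches of chromosome 8 were set by their called bins, so the signs of their 10 kb bins are no separate check. At 10 kb the higher stretch was even, with 1991 of its 1996 bins above 0 and 670 at least 2-fold apart. The distal stretch was less so, with 1789 of 1958 bins below 0, 169 above and 96 at least 2-fold apart. Within domains, whose 100 kb bins were chosen by their ratio, the bins were more uniform still. In the longest higher domain, all 900 of the 10 kb bins kept had a corrected log2 ratio above 0, and the same held for all 400 and all 346 bins of the next in length. In the longest lower domain 109 of 110 bins lay below 0. The ratio on plus-strand reads alone was 1.91 and on minus-strand reads 1.91 in the longest higher domain. Reads with 2 places, which the main counts leave out, moved the same way there, with 3400 listed lines in myotubes against 2506 in untreated ES cells.

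Outside chromosome 8 a single domain was higher in myotubes, on chromosome 17 from 30200001 to 30600000. It held 4005 myotube and 4403 pro-B reads, against 2652 in the untreated and 2627 in the treated ES library. The level of a region is given here as reads per 100 kb relative to the median 100 kb bin of the same chromosome and library, which needs no control library. On that scale the domain stood at 1.91 in myotubes and 2.05 in pro-B cells, and at 1.18 and 1.17 in the untreated and treated ES libraries. The corrected ratio of myotube to ES was 1.60 (1.525 to 1.683), and all 40 of its 10 kb bins lay above 0. The domain was chosen by the ratio of these same reads, so neither value is a separate check of it. The bins on either side had corrected log2 ratios of 0.25 and 0.24. The myotube and pro-B libraries were thus high over the same 400 kb, and both ES libraries were nearer to the level of the rest of the chromosome.

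Chromosome 17 held 12 of the 35 higher bins outside chromosome 8. Besides the 4 of this domain, the bin from 60100001 to 60200000 had the highest corrected log2 ratio outside chromosome 8, at 1.09, with 897 myotube reads against 448 (untreated ES), 457 (treated ES) and 519 (pro-B). At 10 kb the excess was a run of 6 bins from 60130001 to 60190000, with 693 myotube reads against 316, 336 and 364 in the same order (2.33 times ES, 2.033 to 2.666). It was the only run of 3 or more 10 kb bins at least 2-fold higher outside the chromosome 8 domains. Chosen after the values were seen, the 100 kb from 60130001 to 60230000 had a level of 2.19 in myotubes against 1.01, 1.02 and 1.18 in the other libraries in the same order, so the other 3 libraries lay near the level of the chromosome. A further 5 higher bins lay between 38000001 and 40000000, where 7150 myotube and 6043 ES reads gave a ratio of 1.26 (1.213 to 1.299) and SB431542-treated ES cells were at 1.09 times untreated ES.

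The remaining higher bins were scattered. Chromosome 11 held 5, chromosome 4 held 4, chromosome 13 held 3, and chromosomes 2, 10, 15, 16 and 18 none. Most lay close to the rule: apart from those of chromosome 17, the highest were chromosome 12 from 104100001 (165 against 103 reads, corrected log2 ratio 0.73) and chromosome 4 from 146400001 (531 against 339 reads, 0.73). The second of these had 383 treated ES and 254 pro-B reads. Of the 35 higher bins, 34 had a level in SB431542-treated ES cells within 0.5 log2 of untreated ES. The exception was chromosome 17 from 39400001, with 400 untreated against 686 treated ES reads and 542 myotube reads. That bin was higher than untreated ES in both and lower in myotubes than in treated ES cells. Between the ES libraries, 22147 of all 22150 bins outside chromosome 8 had a corrected log2 ratio within 0.5, so likeness there is not particular to called bins.

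Lower bins outside chromosome 8 were more frequent, reached further from 0 and were concentrated on chromosome 4, which held 35 of the 148 and 13 of the 30 that were at least 2-fold lower. On the higher side 1 bin was 2-fold apart. Of the 5 lower domains, 4 lay on chromosome 4. The lowest ran from 88700001 to 89000000, with 225 myotube reads against 1258 (untreated ES), 1310 (treated ES) and 1678 (pro-B), a corrected ratio of 0.190 (0.164 to 0.219). Its myotube reads lay at its ends: the 230 kb from 88740001 to 88970000 held 1 myotube read against 946, 1019 and 1273. The ratio there was 0.00112 (2.84e-05 to 0.00627). This part was chosen after the counts were seen, and the interval does not allow for that choice. The flanking 100 kb bins were at corrected log2 ratios of 0.08 and 0.11.

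The next domains of chromosome 4 were low in the myotube and pro-B libraries alike. From 111500001 to 111800000 there were 177 myotube and 234 pro-B reads against 720 and 752 in untreated and treated ES cells, a myotube ratio of 0.261 (0.220 to 0.308). In 2 of its bins, from 111600001 and 111700001, myotubes had 2 and 1 reads and pro-B cells 1 and 2, against 211 and 230 in untreated ES cells. From 113000001 to 113500000 there were 361 myotube and 315 pro-B reads against 1215 and 1238, at 0.316 times ES (0.280 to 0.355). Both domains belong to a span from 111500001 to 113700000 with few uniquely placed reads in every library, at levels of 0.384 and 0.397 in the ES libraries, 0.153 in myotubes and 0.172 in pro-B cells. Listed lines of reads with 2 places numbered 2555 and 2885 in the ES libraries, against 1139 (myotube) and 1060 (pro-B). A called bin from 121500001 to 121600000, outside any domain, had 1 myotube and 4 pro-B reads against 382 and 418 ES reads. It was not isolated: from 121400001 to 121700000 there were 2 myotube and 5 pro-B reads against 651 and 714. In the bin from 121800001, lines of reads with 2 places numbered 2 in myotubes against 340 in untreated ES cells.

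The last domain of chromosome 4 and the lower domain of chromosome 17 were of another size. Chromosome 4 from 137800001 to 138100000 held 1305 myotube reads against 2106 in untreated ES cells (0.658, 0.614 to 0.706). Treated ES cells had 1878 and pro-B cells 1919. Against treated ES cells the ratio was 0.758, and its flanks were at -0.42 and -0.29, so this was a graded dip. Chromosome 17 from 6200001 to 6500000 held 1034 against 1828 reads (0.600, 0.555 to 0.648), with 1696 and 1926 in treated ES and pro-B cells. It was rich in reads with 2 places, with 3706 such lines in untreated ES and 2117 in myotubes, and 9 of its 30 bins of 10 kb held enough reads to be counted.

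**Figure D3:**
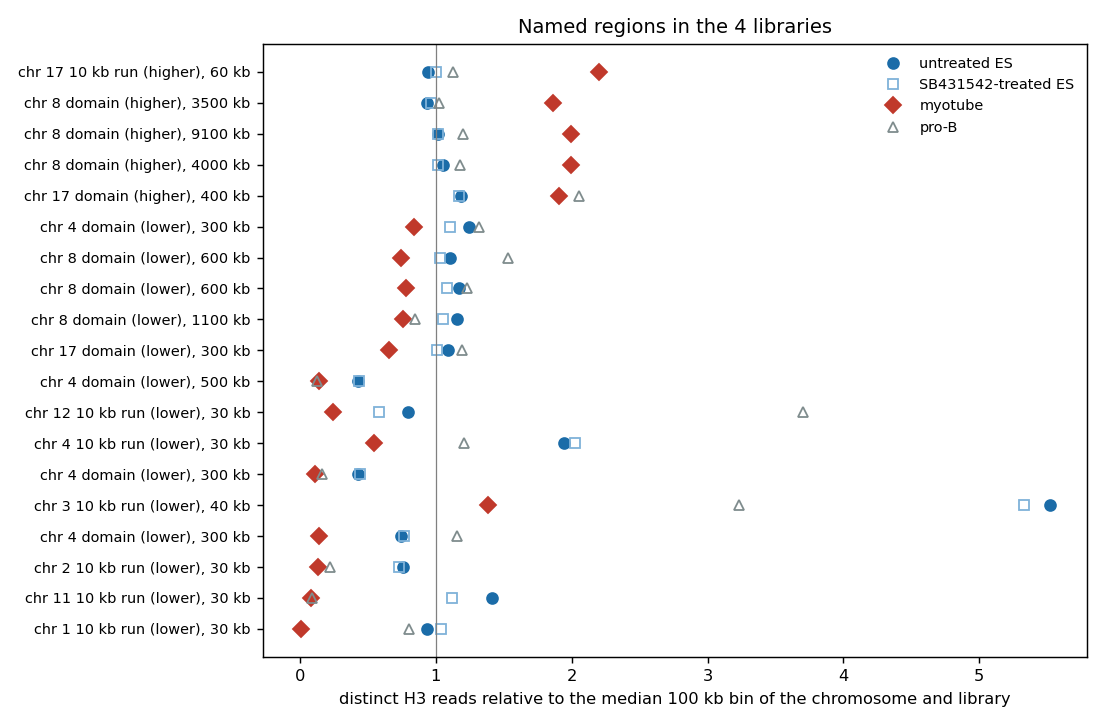
Level of each named region (reads per 100 kb relative to the median bin of its chromosome and library) in untreated ES (filled circle), SB431542-treated ES (open square), myotube (filled diamond) and pro-B (open triangle) libraries, ordered by the corrected ratio of myotube to untreated ES. The ES libraries lie close together in most regions, and pro-B cells follow the myotubes in some, such as the chromosome 17 domain of 400 kb at 1.91 and 2.05, and the ES cells in others.

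Among the 30 bins that were at least 2-fold lower, the pro-B level was under 0.5 times the ES level in 14 and above the ES level in 8. Over all 148 lower bins outside chromosome 8 these counts were 15 and 44. They were not made over all bins kept, so they are not read as particular to these bins. In SB431542-treated ES cells all 30 were within 0.5 log2 of untreated ES, from -0.24 to 0.30. By the corrected log2 ratio, so were 22147 of all 22150 bins outside chromosome 8, so this is not particular to the 30. The 30 bins were sparse in ES cells too, with a median level of 0.553 there, 0.136 in myotubes and 0.257 in pro-B cells. Examples low in myotubes and pro-B cells, chosen after their values were seen, were chromosome 6 from 131800001 (28 myotube, 31 pro-B and 317 and 313 ES reads), chromosome 6 from 130000001 (13, 11, 209 and 205) and chromosome 11 from 71000001 (25, 26, 193 and 191). The myotube ratios there were 0.092, 0.065 and 0.144.

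In other bins myotubes were the only library far below the rest. Chromosome 1 from 8100001 to 8200000 held 76 myotube reads against 361 (untreated ES), 451 (treated ES) and 316 (pro-B). Within it, a run of 3 bins of 10 kb from 8150001 to 8180000 had 1 read against 155, 176 and 128, a ratio of 0.00652 (0.000164 to 0.0369). The last bin of chromosome 13, from 120600001, had 70 myotube reads against 197, 212 and 335. As an end bin it may cover less than 100 kb, and only 2 of its 10 kb bins were counted. Before repeats were removed, 15.7% of its myotube reads were repeated, against 4.37% in untreated ES cells. On chromosome 19 from 8800001 to 9000000, both bins were low by a like amount, with 585 myotube reads against 1471, 1503 and 1869 and a ratio of 0.437 (0.397 to 0.482). All 20 of its 10 kb bins lay below 0 and 12 were at least 2-fold lower, so this was an even reduction and not an empty stretch. Both 100 kb bins were chosen for being low, so 10 kb bins below 0 there are no separate check.

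**Figure D4:**
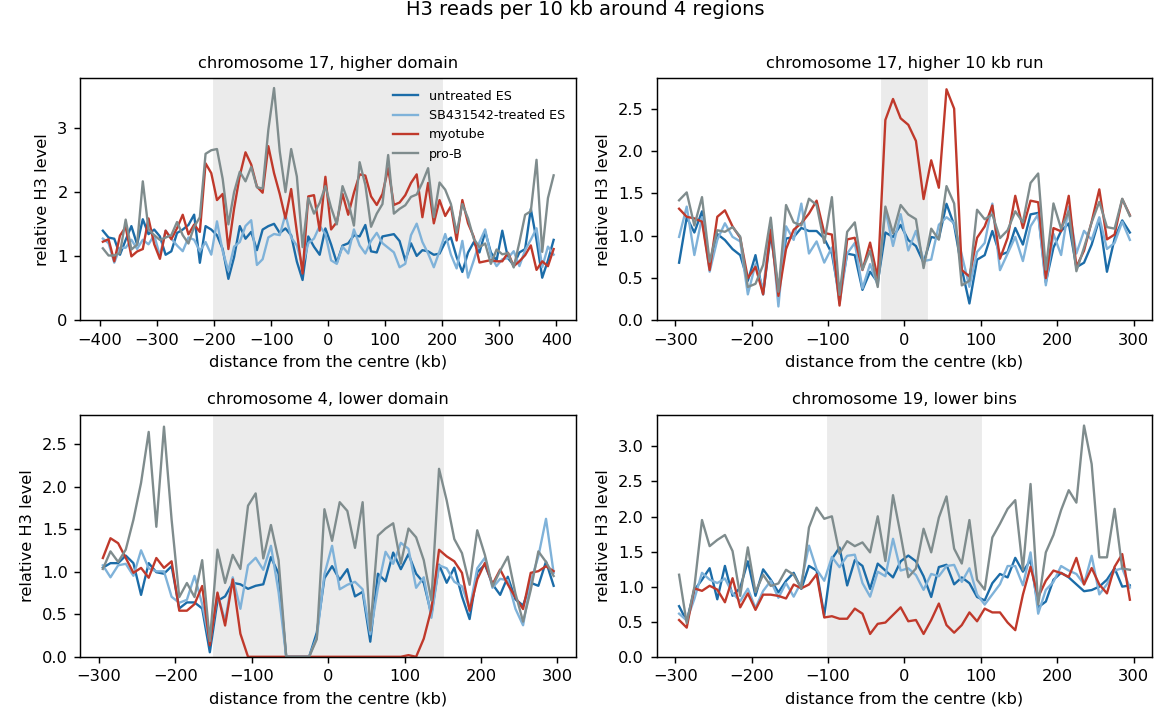
H3 level per 10 kb (relative to the median bin of the chromosome and library) by distance in kb from the centre of 4 regions, shaded, in the 4 libraries. Myotubes rise with pro-B cells in the first panel, rise alone in the second, are at or near 0 in the third and run evenly below the other libraries in the fourth.

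In bins of 10 kb, 1085 of 222698 were at least 2-fold higher in myotubes (0.487%) and 993 at least 2-fold lower (0.446%). The median bin held 55 and 59 reads, so counting alone gives an SD of 0.269 in the log2 ratio and single bins are imprecise. Scaling to the chromosome mean gave 795 and 1101, and the running median 323 and 716. Between the ES libraries the rule called 248 higher (0.111%) and 160 lower (0.0715%) of 223863. Of the higher bins, 682 lay on chromosome 8. Outside it there were 403 (0.191%), and 391 of them had no called neighbour. Lower bins outside chromosome 8 numbered 856 (0.406%), of which 731 stood alone and 199 lay in a lower 100 kb bin.

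Runs of 3 or more called 10 kb bins numbered 69 higher and 16 lower. All higher runs but that on chromosome 17 lay in the domains of chromosome 8. Of the lower runs, 5 lay in 100 kb domains and 11 outside. After that of chromosome 1, the lowest outside runs were chromosome 11 from 116560001 to 116590000 (14 myotube and 15 pro-B reads against 255 and 200 in the ES libraries) and chromosome 2 from 153750001 to 153780000 (22 and 36 against 133 and 127). Pro-B cells were thus low in both.

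A run on chromosome 3 from 25710001 to 25750000 differed in kind, because the ES libraries were high there. Reads numbered 1212 (untreated ES), 1209 (treated ES), 298 (myotube) and 660 (pro-B), or levels of 5.52, 5.33, 1.39 and 3.23. The 100 kb bins on either side stood at 1.06 and 1.04 in untreated ES cells and at 1.08 and 1.21 in myotubes. On chromosome 4 from 145330001 to 145360000 the levels were 1.94 and 2.02 in the ES libraries, 0.549 in myotubes and 1.21 in pro-B cells. The sixth run, chromosome 12 from 116080001 to 116110000, had 40 myotube reads against 134, 101 and 576, and pro-B cells were the highest library there.

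Empty bins were found in 1 direction. In 61 bins of 10 kb the myotube library had no read where untreated ES cells had at least 30, and no bin was empty in untreated ES cells where myotubes had 30, or even 20. Neither ES library had such a bin against the other. Pro-B cells had no read in 33 bins where untreated ES cells had at least 30. Bins exist only for sequence of the mm8 build, so sequence missing from that build could not show as empty in ES cells. Chromosome 4 held 33 of the 61, with 16 in the domain from 88700001, 11 from 121400001 to 121700000 and 5 in the span from 111500001 to 113700000, and chromosome 1 from 8100001 held 5. The SB431542 library had 23 to 95 reads in these 61 bins. Pro-B reads fell into separate ranges: 29 bins had 3 or fewer and 32 had at least 20, with none between. The whole 100 kb bin of chromosome 4 from 88800001 held no myotube read against 320 in untreated ES, 330 in treated ES and 481 in pro-B cells, and the upper bound of its ratio was 0.0123.

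Along the chromosomes, the corrected log2 ratio of neighbouring bins was alike. Over 20494 pairs of adjacent 100 kb bins outside chromosomes 4 and 8, Pearson's r was 0.634, and it fell to 0.404 at 0.5 Mb, 0.258 at 1 Mb and 0.051 at 5 Mb. Between the ES libraries, which share the untreated ES counts with this comparison, r was 0.311 for adjacent bins, 0.208 at 1 Mb and 0.097 at 5 Mb. Adjacent bins share libraries, chromosome and local base composition, so these values are descriptions across bins. With plus-strand and minus-strand reads taken separately, r between the 2 ratios was 0.643 over 20647 bins, against 0.239 for the ES libraries. Counting error lowers r more where the spread is small. Over these autosomes the counting SD of the median bin was 0.087 beside a spread of 0.196 for myotubes. Between the ES libraries it was 0.085 beside 0.114. How much of the gap in r between the comparisons this makes was not tested. Within the myotube comparison, the weak differences were broader than a bin. They were repeatable between strands of the same libraries, which share any bias of the library. Even at a lower rule of 0.3, though, no run outside chromosome 8 reached 1 Mb: 55 higher runs covered 20.1 Mb and 90 lower runs 34.0 Mb. Bins outside chromosome 8 were also put in 5 groups by read density in SB431542-treated ES cells. From the sparsest to the densest, the median corrected log2 ratio of myotubes was 0.06, 0.06, 0.02, -0.02 and -0.11. The part of read density in the differences was not tested.

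**Figure D5:**
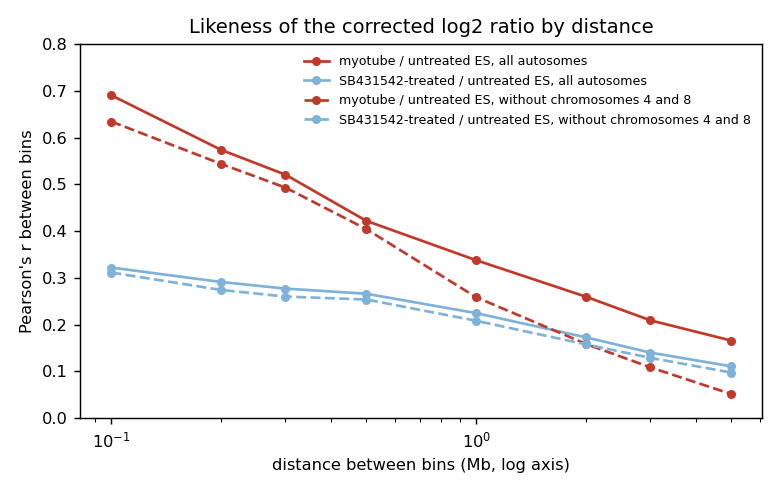
Pearson's r of the corrected log2 ratio between 100 kb bins by their distance (log axis), for myotubes (red) and SB431542-treated ES cells (blue) against untreated ES cells, over all autosomes (solid) and without chromosomes 4 and 8 (dashed). The dashed myotube line starts at 0.634 and meets that of the ES libraries near 2 Mb.

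Toward the distal end of the chromosomes other than 8, over the final 10% of their length, the median corrected log2 ratio was -0.07 over 2252 bins, but it was also -0.05 between the ES libraries, which share the same untreated ES counts.

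Called bins outside chromosome 8 were richer in reads with 2 places than the rest. Lines with 2 places made up a median of 7.34% of the SB431542-treated ES reads in the 35 higher bins, 6.08% in the 148 lower bins and 3.02% in the 21930 bins not called. The middle 50% of bins spanned 2.68% to 47.7%, 2.89% to 33.4% and 1.93% to 4.75%. The part of sequence present at more than 1 place in the calls was not tested. Repeated reads and strand balance were taken from the SB431542-treated ES library, which is outside the comparison, and were alike in the 3 sets. Medians were 5.10%, 5.73% and 5.25% repeated and 50.0%, 50.1% and 50.0% on the plus strand. These shares were not summarised by set for the myotube and untreated ES libraries. Across 22103 bins outside chromosome 8, the corrected log2 ratio of myotube to untreated ES had r = 0.155 with that of pro-B to SB431542-treated ES, a comparison that shares no library with it. The value was 0.137 over all autosomes and 0.086 without chromosomes 4 and 8.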

How the data were processed

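Total H3 ChIP-seq was deposited as signed read positions for 4 mouse libraries. Per the file headers, the authors aligned reads with Bowtie to the mm8 build (seed of 36 bases, at most 2 seed mismatches, mismatch quality limit of 70, at most 2 places). The deposited values carry no count, score or normalisation, and keep repeated reads. Reads of the first section were read as having 1 place. Positions were read as counted from 0 (the smallest was 3000000) and are printed counted from 1.

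Distinct positions per strand were counted in bins with Python 3.11.15, NumPy 2.4.6 and SciPy 1.17.1. Log2 ratios used 0.5 added to each count. The 10 kb ratios used the chromosome medians of the 100 kb bins. With 1 library per group no test was made. The calls and chromosome correction were run on simulated data with counting error only, scattered changed bins and shifts of whole chromosomes. That simulation held no wider spread and no long stretches like those of chromosome 8, so it cannot show how the rule behaves with them. Domains named were, outside chromosome 8, the 8 highest and 8 lowest (1 and 5 existed), on chromosome 8 the 3 longest per direction, and 6 runs of 10 kb bins per direction outside domains (1 higher existed). The comparison, rules and lists were chosen with earlier results of these data known. Alternatives covered repeated reads, 2-place reads, correction, reference, strand, chromosomes, bin start, limits and minima. No genome or annotation of mm8 was used, so no gene was placed and no sequence is printed.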

Additional observations from a re-analysis of the deposited data

Results flagged for a closer look

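Reads with 2 places did not enter the comparison, and 3 of their 1271 autosomal 100 kb bins with a mean of at least 100 listed lines had at least 2-fold more lines in myotubes than untreated ES cells had, against 26 with at least 2-fold fewer. Between the ES libraries there were none of 1355. The corrected log2 ratios were 2.22 on chromosome 2 from 122300001 (184 lines against 43), 2.11 on chromosome 12 from 94600001 (175 against 46) and 1.07 on chromosome 7 from 32200001 (161 against 104).

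In the first 2 of these bins the excess lay within 2 kb. Chromosome 2 from 122372001 to 122374000 and chromosome 12 from 94600001 to 94602000 each listed 167 myotube lines against 31 (untreated ES), 33 (treated ES) and 28 (pro-B), 5.71 times the ES share (3.88 to 8.67). The counts of lines were equal at both places in each library. Equal counts arise by construction if the same reads are listed at both places, so these intervals are not separate observations. Reads with 1 place in the chromosome 2 interval were 118 in myotubes against 32, 31 and 24 in the other libraries in the same order, and 5 against 8, 6 and 7 in the chromosome 12 interval.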

How the results depend on the processing

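No paired analysis was possible because each group had 1 library, and no replicate could be left out. Of 97 recomputed counts and spreads, 45 stayed within 1.5-fold (counts) or within the sampling error of the SD (spread). Of 72 recomputed domain ratios, 57 stayed within their counting interval and none crossed 1. The longest higher domain of chromosome 8 ran from 1.744 (chromosome mean) to 1.947, with 2 of 6 alternatives within its interval. For the longest lower domain of that chromosome the range was 0.585 (chromosome mean) to 0.717, with 4 of 6 within. The main counts were 230 and 243 bins, 6 and 15 domains, and 1085 and 993 bins of 10 kb, higher and lower. The setting without chromosomes 4 and 8, and the rule of 0.3 for domains, were chosen after seeing the data. Leaving out chromosomes, a stricter rule or a higher minimum lowers counts by construction. For other changes the cause was not tested.

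Without chromosome 8 the values were 35 and 148 bins, 1 and 5 domains, an SD of 0.228 and 403 higher 10 kb bins. Without chromosomes 7, 8 and 15 they were 34 and 138, 1 and 5, 0.232 and 361. Without chromosomes 4 and 8 they were 31 and 113, 1 and 1, 0.196 and 360. The running median gave 39 and 97 bins, 1 and 4 domains, an SD of 0.197 and 323 higher 10 kb bins. Lower domains numbered 24 with 2-place reads, 9 with the SB431542 reference and 23 with bins shifted by 50 kb. The SD was 0.247 with all reads, 0.241 with 2-place reads, 0.239 with the SB431542 reference and 0.252 with shifted bins. The strand settings used halved read minima, and each strand holds fewer reads per bin under the same rule of size. On the plus strand the SD was 0.262, with 3407 higher and 3672 lower 10 kb bins. On the minus strand it was 0.254, with 10 higher domains and 3277 and 3669 bins. A rule of 0.3 gave 1232 and 1620 bins and 59 and 109 domains, a rule of 1 gave 45 and 30 bins, and a rule of 1.5 gave 57 and 161 bins of 10 kb. Without a minimum 393 bins were lower, with 2474 and 3284 of 10 kb, and a minimum of 40 left 533 lower 10 kb bins. Lower domains numbered 39 with 2 neighbouring bins and 6 with 5. The median 10 kb bin held 55 myotube and 59 ES reads, which limits what single bins can show.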
